A study of Mus musculus with 6 samples.

Results

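The genes described here carry or are closely tied to the transport of magnesium and copper: Trpm6, Trpm7, Cnnm2, Cnnm4 and Slc41a1 for magnesium, and Slc31a1, Atp7a and Atp7b for copper. They were chosen by name, as the 8 listed genes among 22180 with a probe set that the platform annotation pairs with a single symbol. Each of the 8 had exactly 1 such probe set, so no choice between probe sets was needed. Their signals came from the duodenum of mice on a C57Bl/6 background aged 10 weeks. There were 3 wild-type samples and 3 VDR-null ones, that is, from mice without the vitamin D receptor, with 1 Affymetrix whole-transcript array a sample. The sources used here do not give sex, diet, the targeted allele or whether any mice were littermates, so p-values measure the spread between these arrays. The comparison asks whether the transport genes of these 2 metals differ in the proximal small intestine when the receptor is missing.

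Magnesium enters intestinal epithelium partly between cells and partly through channels, of which TRPM6 and TRPM7 join an ion channel to a kinase in 1 protein. CNNM4 and CNNM2 are basolateral membrane proteins tied to the exit of magnesium from epithelial cells, and SLC41A1 is a magnesium carrier that is thought to work as a sodium exchanger. Copper is taken up by SLC31A1, also called CTR1, and is pumped by the ATPase ATP7A across the basolateral side of the enterocyte towards the blood. ATP7B is the related pump that serves chiefly the liver, where it loads ceruloplasmin and moves copper into bile. ATP7A is mutated in Menkes disease and ATP7B in Wilson disease.

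None of these genes differed between the genotypes past the threshold used, an adjusted p of 0.05 over all 13174 genes tested (limma, Benjamini-Hochberg). No other tested gene passed it either, a share of 0%, so this result is not particular to the set. To be tested, a gene needed 3 or more of its 6 values to exceed 5.17, the median of the whole table on the log2 scale. By that filter 7 of the 8 genes were tested, and Trpm6 was not. Of the 7, 6 had a higher mean in VDR-null duodenum and 1, Trpm7, a lower one. Their differences ran from -0.10 to 0.44 on the log2 scale, with a median of 0.20. Over all tested genes the median difference was -0.03, and 44% of them had a difference above 0. Fewer cells of a type and less RNA per cell cannot be told apart in RNA from whole tissue.

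RefSeq's table of promoter windows for GRCm38.p6, each 250 bases before to 50 bases after a gene's start, held all 8 genes. The windows were searched on both strands for the half-site AGGTCA, its variant AGTTCA, its variant GGGTCA and the form GGTTCA, which the vitamin D receptor and related nuclear receptors bind, alone and as 2 half-sites with 3 bases between them. Any of these half-sites stood in 43.7% of the 32851 windows of the table and in 2 of the 8 here, those of Trpm6 and Atp7b. The paired form stood in 0.0396% of all windows and in 0 of these 8. The metal response cores TGCACNC and TGCGCNC, of the kind bound by the zinc sensor MTF1, stood in 25.7% of all windows and in those of Cnnm4, Slc41a1, Atp7a and Atp7b. A match says only that these letters are there, and no match says nothing about the factor.
Trpm6 is shown because it holds a half-site before its start. Cnnm4 is shown because it was the only 1 of the 7 tested genes whose genotypes did not overlap, as was so for 11.1% of all tested genes. For each, the 250 bases before the start are printed 5′ to 3′ along the gene, Trpm6 at chr19:18749480-18749729 (plus strand) and Cnnm4 at chr1:36471347-36471596 (plus strand), with the matches in capitals.
Trpm6: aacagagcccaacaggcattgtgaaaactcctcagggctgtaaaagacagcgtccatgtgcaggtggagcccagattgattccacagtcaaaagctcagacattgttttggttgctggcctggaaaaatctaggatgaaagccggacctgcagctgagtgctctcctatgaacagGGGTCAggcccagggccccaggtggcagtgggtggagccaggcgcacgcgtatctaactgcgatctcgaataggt
Cnnm4: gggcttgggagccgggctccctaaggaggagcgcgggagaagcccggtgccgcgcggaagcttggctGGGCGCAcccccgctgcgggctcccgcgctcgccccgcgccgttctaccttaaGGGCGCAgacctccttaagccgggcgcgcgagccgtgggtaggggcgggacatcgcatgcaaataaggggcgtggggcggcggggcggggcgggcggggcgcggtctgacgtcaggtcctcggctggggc
In Trpm6 the capitals mark the half-site GGGTCA, which begins 75 bases before the start. In Cnnm4 they mark 2 metal response cores on the minus strand, which begin 183 and 130 bases before it. The Cnnm4 window is also rich in G and C, at 76.3% against a median of 52.7% over all windows, and holds the palindrome TGACGTCA, found in 1.79% of them, 24 bases before the start. For the pair of copper pumps only the stretch around the cores is shown, Atp7a at chrX:106027086-106027116 (plus strand) and Atp7b at chr8:22060219-22060237 (minus strand).
Atp7a: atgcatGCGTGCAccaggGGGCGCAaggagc
Atp7b: cctcgcTGCACCCtatctg
Atp7a has 2 cores in this stretch, both on the minus strand, and Atp7b has 1 on the plus strand. The half-site of Atp7b, AGGTCA on the minus strand, lies just after the start, from its base 2, and is not part of the stretch shown.

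Some arrays stood apart, which touches every value below. Relative to the mean of the 6 arrays, 19 tested genes of the microvillus brush border averaged -1.01 on the array of wild-type replicate 1 and 0.84 on that of VDR-null replicate 1, and between -0.13 and 0.27 on the other 4. In the VDR-null mean 18 of these 19 genes were higher (median difference 0.59), as were all 19 measured enterocyte genes (median 0.63). Of the 7 tested members 6 were higher too, Slc41a1 by only 0.0034, where 44% of all tested genes were higher. None of these members and marker genes passed the threshold. All 12 tested smooth muscle genes were lower in the VDR-null mean, none past the threshold, and that list's mean level was 9.48 to 10.00 on wild-type and 9.41 to 9.43 on VDR-null arrays. On VDR-null replicate 3 pancreatic acinar transcripts were high: Cpa1, a carboxypeptidase, read 10.11 there and 5.55 to 6.78 on the other 5 arrays. The mean of the 10 measured acinar genes reached 8.26 on it, against 5.23 to 5.65 in wild-type. Ctrb1 of that list was also raised on VDR-null replicate 1, at 8.57, with 11.06 on VDR-null replicate 3 and 6.19 to 7.24 on the other arrays. Clps of the list had its highest value, 11.85, on wild-type replicate 1. It read 11.49 on VDR-null replicate 3 and 10.34 to 10.78 on the remaining arrays. The Y-linked Kdm5d read 6.54 on VDR-null replicate 3 and 7.41 to 7.74 on the others. The labelled tissue carried its own markers, with all 19 measured enterocyte genes and all 8 proximal duodenum genes past the filter, against 1 of 6 kidney genes and 2 of 8 liver genes. Vdr itself read 10.72, 10.95 and 11.11 on the wild-type arrays and 10.99, 10.86 and 10.85 on the VDR-null arrays (limma adjusted p = 0.944). The sources used here do not say where its probes lie relative to the missing part of the gene, so Vdr does not check the labels.

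**Figure D1:**
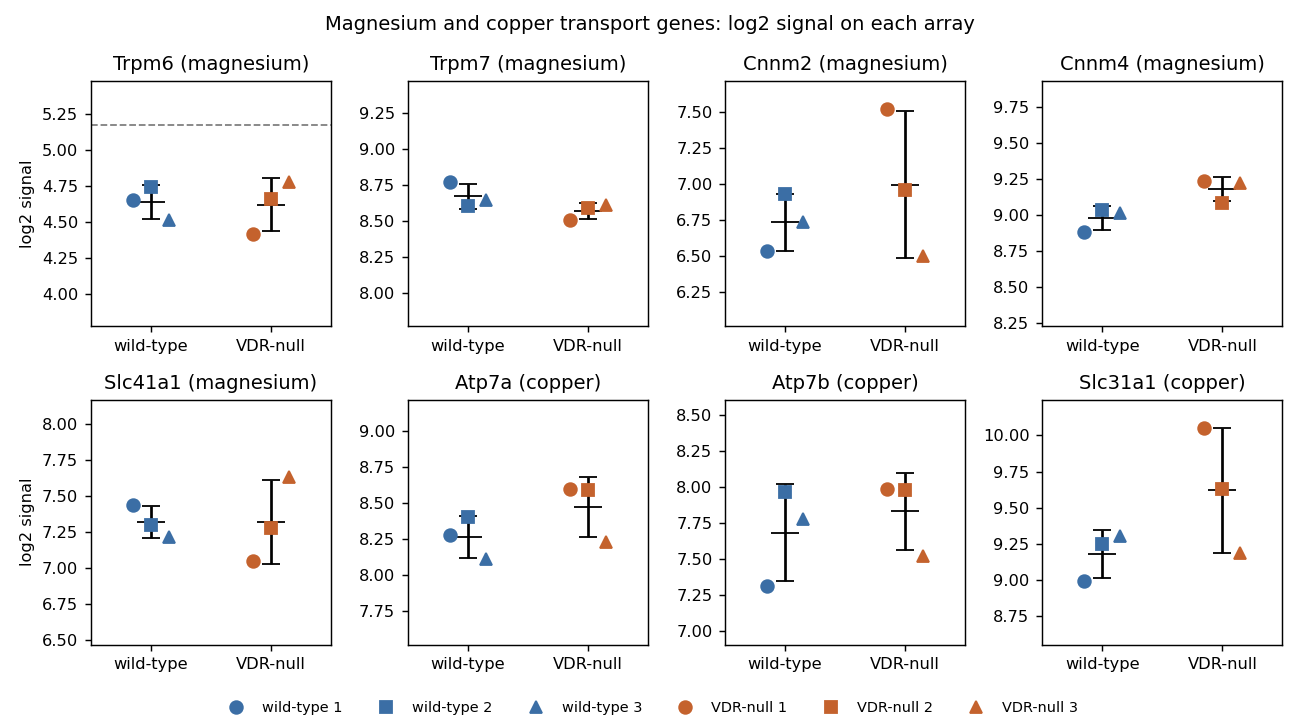
Log2 signal of the 8 genes on each of the 6 arrays, 1 panel a gene, with every vertical axis spanning the same number of log2 units; short horizontal lines and bars give the mean ± SD of 3 arrays, and the dashed line in the Trpm6 panel is the median of all values, 5.17. The groups are apart only for Cnnm4, and the widest spreads are those of Cnnm2 and Slc31a1 in VDR-null duodenum.

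The channel genes of magnesium entry did not separate the genotypes. Trpm6, which encodes the channel-kinase of magnesium absorption known best from colon and kidney, read 4.65, 4.74 and 4.51 on the wild-type arrays and 4.42, 4.66 and 4.78 on the VDR-null arrays. All 6 values lay below the median of the table, so the gene was too dim to be tested, and the lowest and the highest array were both VDR-null. Its means were 4.64 ± 0.12 (SD, n = 3) and 4.62 ± 0.18 (n = 3), and a limma fit of all genes without a filter gave it an adjusted p of 0.971. Background can limit such dim signals, and its level was not estimated here, so a fold is not given.

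Trpm7, the broadly expressed relative of Trpm6, was well above the filter on every array. It read 8.77, 8.60 and 8.65 on the wild-type arrays and 8.51, 8.59 and 8.61 on the VDR-null arrays. The highest array was wild-type replicate 1 and the lowest VDR-null replicate 1, and the other 4 arrays lay within the narrow band between them, where the groups overlapped. The difference was -0.10 ± 0.09 (SE), or 1.07-fold higher in wild-type, with a 95% confidence interval of -0.31 to 0.11 (limma adjusted p = 0.715). Trpm7 had a small spread, with a within-genotype SD of 0.07 against a median of 0.15 over all tested genes. On the fold scale its interval ran from 0.81 to 1.08 for VDR-null over wild-type. Without both replicate 1 arrays the difference was -0.02.

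Among the genes of basolateral magnesium exit, Cnnm4 had the clearest separation of the set. Cnnm4, whose human form is mutated in a disorder of retinal cones and tooth enamel, read 8.88, 9.04 and 9.01 on the wild-type arrays and 9.24, 9.08 and 9.22 on the VDR-null arrays. Every VDR-null array lay above every wild-type array, with 9.04 and 9.08 as the nearest pair. The difference was 0.20 ± 0.09 (SE; 95% confidence interval -0.02 to 0.42), or 1.15-fold higher in VDR-null, with an unadjusted p of 0.0649 and an adjusted p of 0.683 in limma. It stayed between 0.16 and 0.25 when any single array was left out and was 0.13 without both replicate 1 arrays. Groups without overlap were found in 1 of the 7 tested genes of the set and in 11.1% of all tested genes, 4.87% with VDR-null above.

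Cnnm2, whose human form is mutated in inherited low blood magnesium, was the dimmer and more variable relative. It read 6.54, 6.93 and 6.74 on the wild-type arrays and 7.53, 6.96 and 6.50 on the VDR-null arrays. The VDR-null arrays included both the highest and the lowest value, so the groups overlapped fully. The difference was 0.26 ± 0.25 (SE; 95% confidence interval -0.34 to 0.86; limma adjusted p = 0.733). It was -0.0022 when VDR-null replicate 1 was left out and -0.10 when both replicate 1 arrays were. Without VDR-null replicate 3 it was 0.51.

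Slc41a1 showed the difference nearest to 0. It read 7.44, 7.30 and 7.22 on the wild-type arrays and 7.05, 7.28 and 7.63 on the VDR-null arrays. The wild-type arrays lay between the VDR-null extremes, and the means were 7.32 ± 0.11 (SD, n = 3) and 7.32 ± 0.29 (n = 3). The difference was 0.0034 ± 0.16 (SE; limma adjusted p = 0.993), and its 95% confidence interval of -0.37 to 0.38 leaves room for 1.29-fold changes in one direction and 1.30-fold in the other. Leaving out VDR-null replicate 3 gave -0.15, and leaving out VDR-null replicate 1 gave 0.14. Of the 7 tested genes, Slc41a1 and Trpm7 were the ones with their lowest value on VDR-null replicate 1.

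The copper importer had the largest difference of the set, with overlap between the genotypes. Slc31a1 read 8.99, 9.24 and 9.30 on the wild-type arrays and 10.05, 9.63 and 9.18 on the VDR-null arrays. VDR-null replicates 1 and 2 lay above all wild-type arrays, and VDR-null replicate 3 lay below wild-type replicates 2 and 3. The difference was 0.44 ± 0.22 (SE; 95% confidence interval -0.08 to 0.96), or 1.36-fold higher in VDR-null, with an unadjusted p of 0.0841 and an adjusted p of 0.683 in limma. It was 0.23 without VDR-null replicate 1, 0.66 without VDR-null replicate 3, the array with the highest acinar mean, and 0.13 without both replicate 1 arrays. The 6 arrays spanned 2.08-fold, from wild-type replicate 1 to VDR-null replicate 1.

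The pump that moves copper out of the enterocyte followed a similar order. Atp7a, an X-linked gene, read 8.28, 8.40 and 8.11 on the wild-type arrays and 8.60, 8.59 and 8.23 on the VDR-null arrays. Again VDR-null replicates 1 and 2 lay above all wild-type arrays and VDR-null replicate 3 lay among them. The difference was 0.21 ± 0.14 (SE), or 1.16-fold higher in VDR-null, with a 95% confidence interval of -0.11 to 0.53 (limma adjusted p = 0.683). It was between 0.14 and 0.33 with any single array left out and 0.16 without both replicate 1 arrays. The Y-linked transcripts were lower on VDR-null replicate 3, while the X-linked Xist, the RNA that silences an X chromosome in females, was dim on all 6 arrays. The part of that array's composition in the Atp7a values was not tested.

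Atp7b, the pump best known from liver, was measured on every array and showed no stable direction. It read 7.31, 7.96 and 7.78 on the wild-type arrays and 7.99, 7.98 and 7.52 on the VDR-null arrays. Wild-type replicate 1 was low and the other 5 arrays overlapped between the genotypes. The difference was 0.15 ± 0.20 (SE; 95% confidence interval -0.34 to 0.63; limma adjusted p = 0.813). It was -0.04 when wild-type replicate 1 was left out and -0.12 when both replicate 1 arrays were. Of the liver markers, 6 of 8 were below the filter, and the list's mean level was 5.51 to 5.55 in wild-type and 5.39 to 5.48 in VDR-null duodenum.

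**Figure D2:**
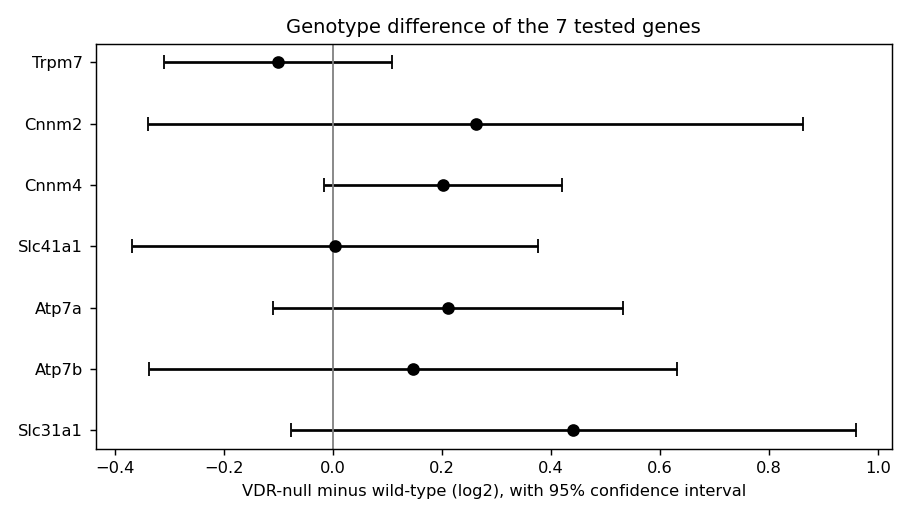
Difference between the genotypes for the 7 tested genes, as VDR-null minus wild-type in log2 units, with the 95% confidence interval from limma as the bar. All 7 intervals include 0; that of Cnnm4, -0.02 to 0.42, and that of Slc31a1, -0.08 to 0.96, reach least far below it.

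The order of the arrays within each gene showed how much of these values the replicate 1 arrays carried. VDR-null replicate 1 was the highest array in 5 of the 7 tested genes and the lowest in the other 2. Over all tested genes it was the highest in 24.4% and the lowest in 33.5%. Both replicate 1 arrays were at opposite ends in 4 of the 7, Trpm7, Cnnm4, Atp7b and Slc31a1, against 31.5% of all tested genes. The within-genotype SD was above the median of all tested genes in 5 of the 7. In 3 of them, Cnnm2, Slc41a1 and Atp7b, the larger of both group SDs exceeded the difference between the genotypes. It nearly equalled the difference for Slc31a1 (0.434 against 0.441) and Atp7a (0.210 against 0.211).

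The same arrays were the extremes of the brush border genes. Across the 6 arrays, Pearson's r with the mean of the 19 brush border genes was 0.91 for Slc31a1, 0.88 for Atp7b, 0.86 for Cnnm2, 0.77 for Cnnm4 and 0.64 for Atp7a. It was -0.98 for Trpm7 and -0.65 for Slc41a1, and -0.47 for the dim Trpm6. These are descriptions over 6 arrays that share 2 extreme samples. Of the 13155 tested genes outside that list, 14.1% had an r of at least 0.8 and 18.4% an r of -0.8 or below. When the brush border mean entered the limma fit as a covariate, the difference was 0.11 for Slc31a1, 0.11 for Atp7a and 0.14 for Cnnm4, -0.13 for Cnnm2, -0.19 for Atp7b, 0.22 for Slc41a1 and -0.02 for Trpm7, none past the threshold. The covariate came from the same 6 arrays and itself differed between the genotypes, so this fit cannot separate it from genotype. The part of the brush border shift in the differences was not tested.

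**Figure D3:**
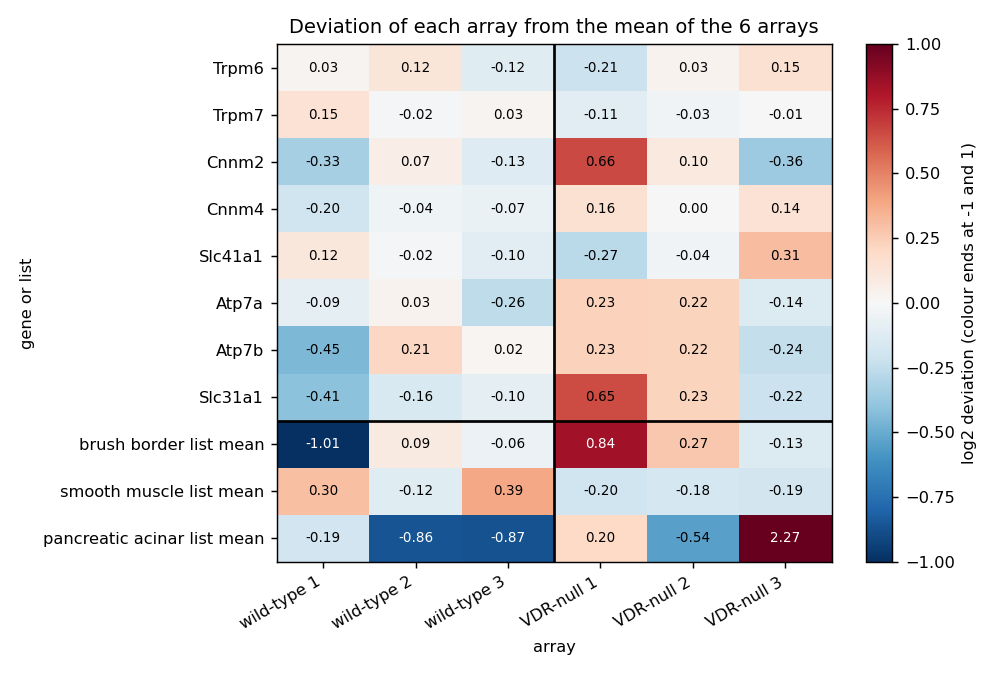
Deviation of each array from the gene's mean over the 6 arrays, in log2 units, for the 8 genes (above the line) and for the mean of the tested genes of 3 marker lists (below it); the acinar row rests on 4 genes. Wild-type replicate 1 and VDR-null replicate 1 were the ends of the brush border row, at -1.01 and 0.84, and Slc31a1 lay at -0.41 and 0.65 on them, while VDR-null replicate 3 stood out in the acinar row.

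Among the members, Slc31a1 and Cnnm2 varied most alike over the 6 arrays (r = 0.93), and Trpm6 and Slc41a1 also varied together (r = 0.84), although all Trpm6 signals were dim. Cnnm2 and Slc41a1 ran against each other (r = -0.86), as did Slc31a1 and Trpm7 (r = -0.85). The tested genes most like each member over the 6 arrays were Lrrc66 and Ddhd1 for Slc31a1, Fgd4 and Lrrfip1 for Cnnm2, Sh2b3 and Hdhd3 for Cnnm4, and Cep68 and Pabpn1 for Trpm7. They were Ascc1 and Cxxc1 for Slc41a1, Fkbpl and Gm5431 for Atp7a, and G630018N14Rik and Tmed4 for Atp7b. Their r ran from 0.98 to 1.00. A high r over these 6 arrays does not single a gene out, as 948 tested genes had an r above 0.9 with Slc31a1 and 75 with Cnnm4.

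Other magnesium genes, a list of channels, carriers and regulators that holds 24 tested genes of 27 measured, had no common direction. In VDR-null duodenum the mean was higher for 12 and lower for 12, with a median difference of -0.0093. As over all tested genes, 0 passed the limma threshold. At an unadjusted p under 0.05 there were 3, or 1 higher and 2 lower, where 5.23% of all tested genes were at that level, 2.2% higher and 3.03% lower. Mmgt2, a membrane magnesium transporter, was the higher one (6.94 to 7.08 in wild-type, 7.14 to 7.39 in VDR-null; difference 0.26 ± 0.10, SE). Cnnm1, a relative of Cnnm2 and Cnnm4, differed by -0.31 ± 0.11, with 6.01 to 6.28 in wild-type and 5.74 to 5.93 in VDR-null duodenum. Cldn19, a claudin of paracellular magnesium passage in the kidney, differed by -0.28 ± 0.11, with 6.06 to 6.17 in wild-type and 5.64 to 5.94 in VDR-null duodenum. The adjusted p of these 3 genes was 0.683 in limma. The genotypes did not overlap in any of the 3, which being picked for a small p favours, and in 8 of the 24 tested genes of the list, 5 with VDR-null above and 3 with it below, against 11.1% of all tested genes. The largest difference of the list, named after its values were seen, was that of Slc41a2, a relative of Slc41a1. It read 6.47, 7.32 and 7.11 on the wild-type arrays and 8.33, 7.88 and 7.09 on the VDR-null arrays, a difference of 0.80 ± 0.35 (SE; limma adjusted p = 0.683) with overlapping groups and the replicate 1 arrays at its ends.

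Other copper genes, a list of chaperones, reductases, copper enzymes and regulators with 25 tested of 27 measured, were split as well. In VDR-null duodenum the mean was higher for 14 and lower for 11, with a median difference of 0.02. As over all tested genes, 0 passed the limma threshold. The genotypes did not overlap in 6 of the 25, 2 with VDR-null above and 4 with it below, against 11.1% of all tested genes. At an unadjusted p under 0.05 were 2 of the 25, Aoc3 and Pam, both lower in the VDR-null mean. Of all tested genes 5.23% were at that level, 3.03% lower. Aoc3, a copper amine oxidase of smooth muscle and endothelium, read 8.33, 7.99 and 8.41 on the wild-type arrays and 7.94, 7.80 and 7.76 on the VDR-null arrays, a difference of -0.41 ± 0.13 (SE; limma adjusted p = 0.683). The smooth muscle genes, which were lower as well, had a median difference of -0.40 over 12 genes, and their part in the Aoc3 values was not tested. Pam, a copper enzyme that amidates peptide hormones, differed by -0.29 ± 0.10 (SE; limma adjusted p = 0.683). The copper chaperones that receive metal from SLC31A1 did not pass the threshold. Atox1, which serves the ATP7 pumps, differed by 0.20 ± 0.16 (SE) and Ccs, which loads superoxide dismutase, by 0.04 ± 0.12. Cox17, which serves cytochrome c oxidase, differed by -0.02 ± 0.19. Sod1, the copper and zinc superoxide dismutase, differed by 0.13 ± 0.09. The metallothioneins Mt1 and Mt2, which bind zinc and copper, differed by -0.25 ± 0.20 and -0.45 ± 0.38. Heph, the copper ferroxidase of the enterocyte, had the largest difference of the list, 0.86 ± 0.43. It ranged from 7.98 to 9.36 in wild-type and from 8.94 to 10.27 in VDR-null duodenum, so the groups overlapped. The replicate 1 arrays were at its ends. These last 7 genes, from Atox1 on, were named after their values were seen.

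**Figure D4:**
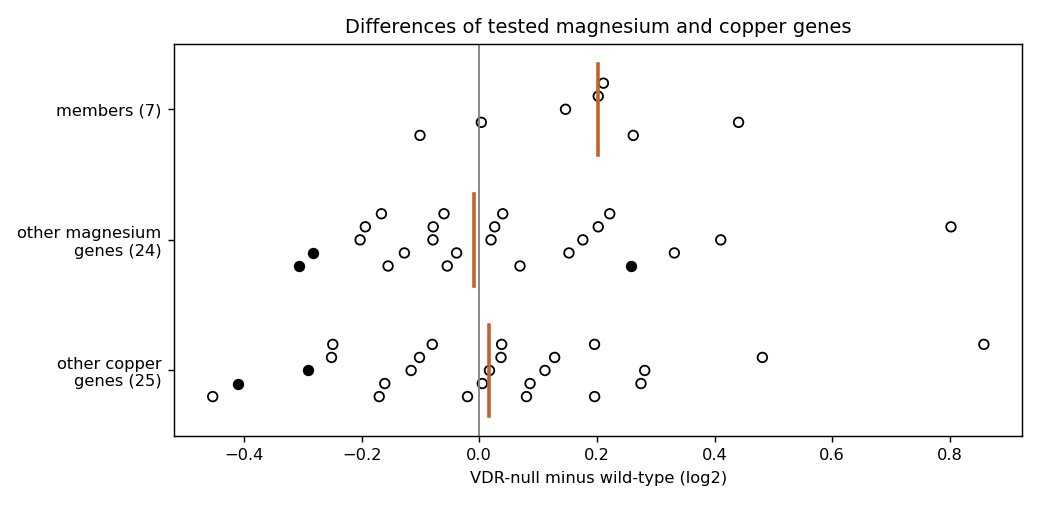
Differences between the genotypes (VDR-null minus wild-type, log2) of the 7 tested members, 24 other magnesium genes and 25 other copper genes, 1 circle a gene, filled where the unadjusted limma p was under 0.05; vertical offsets only keep circles apart, and coloured lines are medians. The medians were 0.20, -0.0093 and 0.02, and the filled circles number 0, 3 and 2.

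Over all 13174 genes, 0 passed an adjusted p of 0.05 in limma, that is 0% of those tested, and 689 had an unadjusted p under 0.05. Of the 7 tested members, 0 had an unadjusted p under 0.05, where the share over all tested genes was 5.23%. That count depended on VDR-null replicate 3: without that array 3 members, Slc31a1, Atp7a and Cnnm2, were at that level, as were 1569 of all 13174 genes, or 11.9%. With array weights 2 were, Atp7a and Slc31a1, against 20.6% of all genes, and with each array centred on its median 1 was, Cnnm4, against 5.22%. None passed the adjusted threshold in these fits. The values with arrays left out show how the direction held. Cnnm4, Atp7a and Slc31a1 were higher in VDR-null, and Trpm7 lower, in each fit with 1 array left out and in that without both replicate 1 arrays, while Cnnm2, Slc41a1 and Atp7b changed sign in at least 1 of them.

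**Figure D5:**
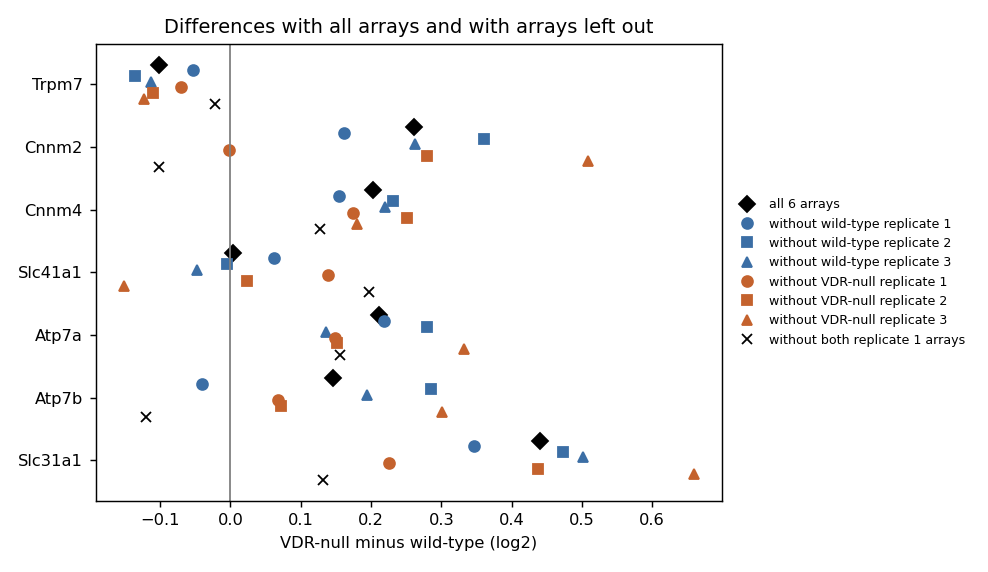
Difference between the genotypes (VDR-null minus wild-type, log2) for the 7 tested genes with all 6 arrays (black diamond), with each array left out (coloured marks) and without both replicate 1 arrays (cross). Slc31a1 ranged from 0.13 to 0.66, Cnnm4 from 0.13 to 0.25, and Cnnm2, Slc41a1 and Atp7b crossed 0.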

How the data were processed

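RNA from 3 wild-type and 3 VDR-null duodenum samples was measured on arrays. The authors deposited log2 signals, 1 a probe set and array. The submitters' processing notes name RMA and Affymetrix Expression Console. The sources used here give neither versions nor whether the 6 arrays were normalized together. Values ran from 1.99 to 13.8, with array medians of 5.15 to 5.19. Of 41345 probe sets, 23521 had 1 symbol in the platform annotation, 1814 several and 16010 none; the probe set with the highest mean stood for each of 22180 genes. The genotype comparison used lmFit and eBayes of limma 3.58.1 (R 4.3.3), two-sided, without covariates, with Benjamini-Hochberg adjustment over 13174 genes. The fit was tested on simulated data with independent noise. Those data held no shift shared by the genes of an array, so they do not cover the extreme arrays seen here. The named genes are the members, list genes with an unadjusted p under 0.05, the 2 genes most like each member, and sex-linked genes. Outside this rule, Slc41a2 and 7 copper genes were named after their values were seen, and Vdr, Cpa1, Ctrb1 and Clps describe the arrays. Members and lists were chosen with earlier results of these data known. Probe sets without a single symbol were left out. The number of arrays limits the precision. Alternatives were other filters and normalizations, a trend, a replicate block, array weights, the brush border covariate, arrays left out, and averaged probe sets.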

Additional observations from a re-analysis of the deposited data

How the results depend on the processing

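No setting took a gene past the adjusted threshold: the count was 0 under all 18 alternatives, with the smallest adjusted p of any gene at 0.150, under array weights. At an unadjusted p under 0.05 there were 689 genes in the fit reported, 284 without wild-type replicate 1 and 2718 with array weights, the extremes. With the brush border covariate the difference was reversed for Cnnm2 (-0.13) and Atp7b (-0.19), and the median of the other magnesium genes moved to 0.0528. Without both replicate 1 arrays it was reversed for Cnnm2 (-0.10) and Atp7b (-0.12), and that median was 0.0252. A second quantile normalization gave -0.0017 for Slc41a1. With 1 array left out the differences ranged from -0.0022 to 0.51 for Cnnm2, -0.15 to 0.14 for Slc41a1, -0.0404 to 0.30 for Atp7b, 0.16 to 0.25 for Cnnm4, 0.14 to 0.33 for Atp7a, 0.23 to 0.66 for Slc31a1 and -0.14 to -0.05 for Trpm7. The median of the other copper genes then ranged from -0.0397 to 0.0814. The cause of these shifts was not tested. Deviations of same-numbered arrays correlated at -0.62, 0.19 and -0.26, and those of unlike-numbered arrays at -0.60 to 0.68. With so few arrays, some of them extreme, these values cannot tell whether the replicate numbers pair the samples. With the replicate block the differences were the same by construction (0.44 for Slc31a1, 0.20 for Cnnm4) and their adjusted p was 0.831, and 338 genes rather than 689 had an unadjusted p under 0.05. Trpm6 was too dim for all fits but that with no filter. The low signal of Trpm6, near background, limits what can be said of it.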
